A study of Mus musculus with 2 samples.

Results

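The genes described here are the glucocorticoid receptor, the enzymes that activate or inactivate its hormone, and well-known genes that the receptor induces, in alveolar type 2 cells (type II pneumocytes) of the mouse lung. They were chosen by name as 10 symbols (Nr3c1, Hsd11b1, Hsd11b2, Tsc22d3, Fkbp5, Zbtb16, Glul, Klf9, Mt1 and Mt2), and all 10 were found among the 24369 gene rows of the deposited table. The study sorted these cells from lungs of wild-type C57BL6 mice and profiled their RNA. Of the ages collected, 2 are used here, postnatal days 7 (P7) and 28 (P28), each with 1 library and no treatment named. The labels do not give the sort markers, the number of animals behind a library, their sex or the hour of collection. Levels are given in RPKM, read numbers divided by gene length and by library depth. With 1 library per age there is no replicate check and no p-value, and "higher" or "lower" compares these 2 libraries. Every interval is a 95% exact interval that covers counting error only.

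Glucocorticoids, corticosterone in the mouse, cross the cell membrane and bind a receptor that waits in the cytoplasm in a complex with heat shock proteins. The receptor then enters the nucleus and binds DNA or other factors, so that some genes are induced and inflammatory genes are repressed. Inside a cell the hormone can be regenerated from its inert form by one 11-beta-hydroxysteroid dehydrogenase and inactivated by another. In the lung the receptor is known for its part in maturation before birth, when surfactant production starts.

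Zbtb16, Glul and Klf9 were higher at P28, and Mt2 was lower. Zbtb16, a transcription factor gene, was 20.3-fold higher (13 to 33.6), the glutamine synthetase gene Glul 4.71-fold (4.25 to 5.24) and the Krüppel-like factor gene Klf9 2.26-fold (1.96 to 2.61). Mt2, a metallothionein gene, was 3.22-fold lower (2.47 to 4.22). Here and throughout, a fold is a ratio of RPKM, whereas a gene was called where log2(RPKM + 1) differed by 1 or more (2-fold). Only genes that reached 1 RPKM in either library were called on, and 7 of the 10 passed that filter. Of these 7, 3 were called higher, where 1.18% of all 9653 genes were, and 1 was called lower, where 1.96% were. The other 3 that passed, Nr3c1, Tsc22d3 and Mt1, lay within 2-fold, and Hsd11b1, Hsd11b2 and Fkbp5 stayed under 1 RPKM in both libraries. Zbtb16 passed the filter through P28 alone, so it had to come out higher to some degree. Fewer cells of a type and less RNA per cell cannot be told apart in bulk RNA such as this, for any of these genes. Over all genes the calls were 114 higher and 189 lower. They became 62 and 388, or 13.8% in place of 37.6% higher, when P28 was scaled to the total of P7, and 144 and 151, or 48.8% higher, when the median log2 ratio was set to 0.

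**Figure D1:**
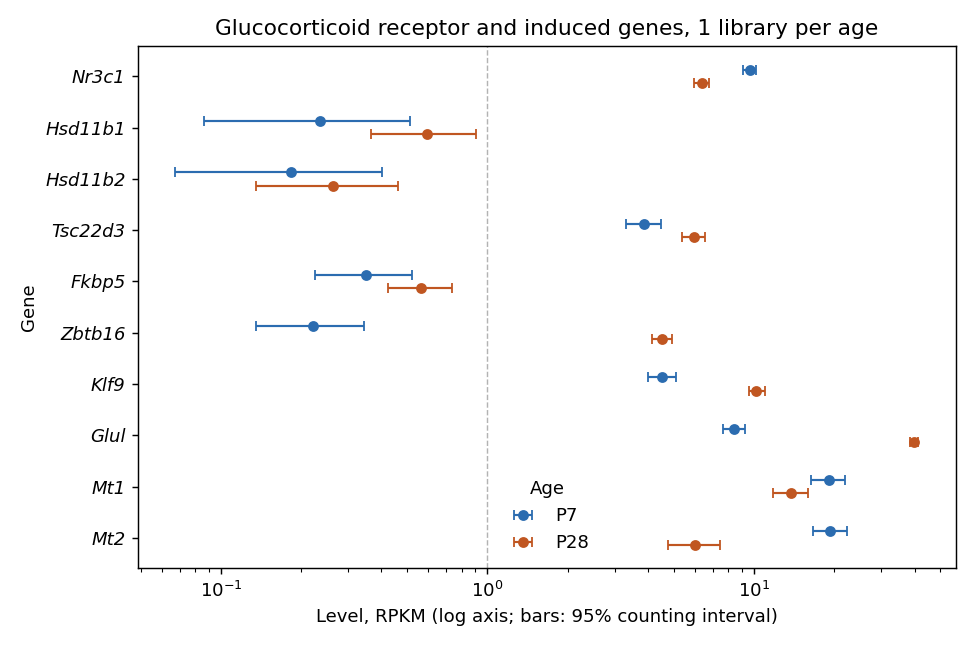
Level of each gene in RPKM (log axis) in the P7 library (blue) and the P28 library (orange), with bars for the 95% counting interval and a dashed line at 1 RPKM. Zbtb16 goes from 0.222 to 4.52 RPKM and Glul from 8.44 to 39.7, while Mt2 goes from 19.3 to 6 and the bars of Hsd11b1, Hsd11b2 and Fkbp5 at the 2 ages overlap.

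The order of the levels differed between the libraries. At P7 the metallothionein genes led, with Mt2 at 19.3 and Mt1 at 19.1 RPKM, and these 2 did not differ beyond counting error. Nr3c1 and Glul followed, then Klf9 and Tsc22d3, each pair with overlapping intervals. Fkbp5, Hsd11b1, Zbtb16 and Hsd11b2 came last, between 0.351 and 0.184 RPKM, with no neighbours apart. At P28 Glul led at 39.7 RPKM, followed by Mt1 at 13.7 and Klf9 at 10.2, each apart from the next. Nr3c1, Mt2 and Tsc22d3 lay together, between 6.36 and 5.94 RPKM, with overlapping intervals for neighbours. Zbtb16 came next at 4.52 RPKM, and Hsd11b1, Fkbp5 and Hsd11b2 stayed at the bottom with overlapping neighbours.

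Nr3c1, the gene of the glucocorticoid receptor itself, was present at both ages at a lower level at P28 that did not reach 2-fold. It lies on chromosome 18 from 39410545 to 39519421 (GRCm38, minus strand, protein coding). Its level was 9.64 RPKM (9.08 to 10.2) at P7, from 1075 reads, and 6.36 (5.97 to 6.77) at P28, from 990 reads. The intervals did not overlap, and the ratio of P28 over P7 was 0.66 (0.604 to 0.72), a log2 ratio of -0.53. More rows of the table lay below Nr3c1 at P7 (93.5%) than at P28 (89.7%).

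None of the genes listed here as chaperones and coregulators of the receptor was called. Of 20 genes for its chaperones and coregulators, all 20 passed the filter and 0 were called in either direction. Their median log2 ratio was 0.06, beside -0.08 for all genes, and turned to -0.27 with equal totals. Chaperone genes had the highest ratios in this list. Hsp90aa1, which encodes the inducible form of the chaperone that keeps the receptor ready for hormone, had 41.1 and 77.4 RPKM, a ratio of 1.88 (1.8 to 1.97). Hspa8, the constitutive Hsp70, had 159 and 275 RPKM (1.73, 1.68 to 1.79), and the receptor co-chaperone Fkbp4 had 20.3 and 30.6 RPKM (1.51, 1.39 to 1.65). The chromatin remodeller gene Smarca4 had the lowest, with 7.71 and 4.56 RPKM. In the same libraries 5 heat shock genes (Hspa1a, Hspa1b, Hspb1, Dnajb1 and Hsph1) were the ones called higher among 17 immediate-early and stress genes that passed the filter, and 0 were called lower. Hsph1 was 5.67-fold higher (4.87 to 6.63) and Dnajb1 3.19-fold (2.92 to 3.48). Hspa1a and Hspa1b are near-identical copies whose reads may be shared, and both passed the filter through P28 alone, at 0.753 and 4 RPKM for Hspa1a and 0.483 and 2.47 for Hspa1b, so they had to come out higher to some degree. With equal totals 3 of the 5 were called (Hspa1a, Dnajb1 and Hsph1). Whether handling of the cells moved with these values was not tested.

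Both enzymes that set the hormone level inside the cell were near the limit of detection. Hsd11b1 (chromosome 1, 193221634 to 193264075, minus strand), which encodes the enzyme that regenerates active hormone, had 0.236 RPKM (0.0865 to 0.513) at P7 and 0.591 (0.366 to 0.903) at P28, from 6 and 21 reads. Hsd11b2 (chromosome 8, 105518755 to 105523988, plus strand), which encodes the inactivating enzyme, had 0.184 RPKM (0.0676 to 0.401) and 0.264 (0.136 to 0.461), from 6 and 12 reads. The ratios of P28 over P7 were 2.51 for Hsd11b1 (0.979 to 7.59) and 1.43 for Hsd11b2 (0.497 to 4.65), so a difference between the ages was not detectable at this depth for either. Hsd11b1 is known from lung fibroblasts, and the summed level of 12 fibroblast markers was 48 RPKM at P7 and 27.1 at P28. Single markers of that list went either way, with 10.6 and 2.08 RPKM for Fbln5, 0.49 and 1.35 for Dcn, 0.152 and 0.73 for Pdgfra, and 0 and 2.31 for Inmt, which was called higher. Dcn and Inmt passed the filter through P28 alone, so they had to come out higher to some degree. The part of fibroblasts in the Hsd11b1 value was not tested. At P28 the level of Hsd11b1 was 2.24 times that of Hsd11b2 (1.05 to 4.99). At P7 the same ratio was 1.28 (0.342 to 4.79).

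Other genes of hormone supply and of steroid receptors were mostly low. H6pd, which encodes the enzyme that supplies Hsd11b1 with its cofactor in the endoplasmic reticulum, was well above both dehydrogenases at 16.2 and 20.5 RPKM, a log2 ratio of 0.33 that turned to -0.05 with equal totals. Of 14 genes of steroid supply and metabolism 3 passed the filter and 0 were called, and 6 had no read in either library, among them the steroidogenic enzyme genes Cyp11a1, Cyp11b1 and Cyp21a1. For Cyp11b1, which encodes the last enzyme of corticosterone synthesis, 0 reads allow a level of up to 0.0538 RPKM at P7 and 0.0385 at P28, the level of 3 reads. Of 5 other steroid receptor genes only Nr3c2, the mineralocorticoid receptor, passed, with 0.736 and 1.07 RPKM, a ratio of 1.46 (1.04 to 2.07). It passed through P28 alone, so it had to come out higher to some degree. The progesterone and estrogen receptor genes (Pgr, Esr1 and Esr2) were at or under 0.0844 RPKM in both libraries.

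Tsc22d3 and Fkbp5, which are among the most widely used readouts of the receptor, had ratios above 1 but were not called. Tsc22d3 (chromosome X, 140539528 to 140600659, minus strand) encodes the leucine zipper protein GILZ, a mediator of anti-inflammatory effects. Its level was 3.86 RPKM (3.32 to 4.47) at P7 and 5.94 (5.37 to 6.57) at P28, a ratio of 1.54 (1.29 to 1.85), and the intervals did not overlap. With equal totals its log2 ratio of 0.51 became 0.18, and the lower end of the ratio interval fell below 1. Relative to Nr3c1, Tsc22d3 stood at 0.4 (0.34 to 0.469) at P7 and at 0.934 (0.829 to 1.05) at P28. That relation was 2.33 times as high at P28 (1.91 to 2.86), since one gene was higher there and the other lower. Fkbp5 (chromosome 17, 28399094 to 28517527, minus strand) encodes a co-chaperone that lowers the receptor's affinity for hormone. It had 0.351 RPKM (0.225 to 0.522) and 0.565 (0.425 to 0.738), from 24 and 54 reads, a ratio of 1.61 (0.979 to 2.73) whose interval includes 1. None of the relatives of either gene was called. Tsc22d1 had 16.4 and 15.3 RPKM and Tsc22d4 1 and 0.653 RPKM, and 0 of the 12 other FK506-binding protein genes that passed the filter, Fkbp4 included, were called. As plain ratios, Fkbp10 was 3.76-fold lower (2.3 to 6.37), at 1.35 and 0.359 RPKM. Fkbp1b was 2.05-fold lower (1.07 to 4.05), at 1.45 and 0.705 RPKM. Fkbp10, Fkbp1b and Tsc22d4 passed the filter through P7 alone, so they had to come out lower to some degree.

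Promoter windows of 250 bases before the start were looked up for all 10 genes in a RefSeq table (GRCm38.p6), which held 9 windows for 7 of them: Hsd11b1, Tsc22d3 (3 windows), Fkbp5, Glul, Klf9, Mt1 and Mt2. They were searched on both strands for the receptor half-site AGAACA, and for the palindrome of 2 half-sites facing each other across 3 bases. The half-site occurred in 16.1% of all 32851 windows of this length and in 1 of the 9. The palindrome occurred in 0.00913% of all windows and in none of the 9. A motif this rare could hardly be met in 9 windows. Bases outside the windows were not searched, so receptor sites elsewhere at these genes would not be seen. The 1 match was in the most upstream of the Tsc22d3 windows, chrX:140600523-140600772 (minus strand), which is shown because it alone held a half-site. Capitals mark the match, on the opposite strand of the gene, which begins 185 bases before the start.
Tsc22d3: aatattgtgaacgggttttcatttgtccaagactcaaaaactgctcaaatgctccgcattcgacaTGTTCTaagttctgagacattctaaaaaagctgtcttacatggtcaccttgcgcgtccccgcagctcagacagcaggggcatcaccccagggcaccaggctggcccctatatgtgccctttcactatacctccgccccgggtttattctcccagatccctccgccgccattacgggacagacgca

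Zbtb16 had the largest ratio of the 10 genes. It encodes PLZF, a zinc finger transcription factor known for its induction by glucocorticoids in several tissues, and lies on chromosome 9 from 48654297 to 48836222 (minus strand). Its level was 0.222 RPKM (0.136 to 0.343) at P7, from 20 reads, and 4.52 (4.15 to 4.9) at P28, from 568 reads. The P28 level lay far above the P7 interval, and Zbtb16 had the 11th highest log2 ratio, 2.17, of the 9653 genes that passed the filter. On the scale of log2(RPKM + 1) a gene this low at P7 is understated, and with a pseudocount of 0.1 its log2 ratio was 3.84. PLZF is also a marker of innate-like lymphocytes. The leukocyte genes Ptprc (0.0902 and 0.00718 RPKM) and Cd3e (0.0395 and 0.0283 RPKM) were near 0 in both libraries, and Nkg7 had no read in either. The B cell gene Cd79b had 2.84 and 3.02 RPKM, from 60 and 89 reads. The macrophage gene Cd68 had 0.455 and 1.08 RPKM (2.36, 1.14 to 5.38), from 10 and 33 reads. Cd68 passed the filter through P28 alone, so it had to come out higher to some degree. The part of leukocytes in the Zbtb16 value was not tested.

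Klf9, whose product is a transcription factor induced directly by the receptor, was just past the threshold. It lies on chromosome 19 from 23141226 to 23168134 (plus strand). Its level was 4.52 RPKM (3.99 to 5.11) at P7 and 10.2 (9.54 to 11) at P28, and the intervals were well apart. The log2 ratio of 1.02 was the 106th highest of all, among 114 genes called higher. With equal totals it was 0.67, and it also lay under the threshold when the totals were equal without the 10 most abundant genes of each library.

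In the rest of the KLF family 10 of 16 genes passed the filter and 8 of these had a log2 ratio below 0. The 1 gene called higher was Klf15, which is itself known to be induced by the receptor, with 1.24 and 3.53 RPKM, a ratio of 2.85 (2.08 to 3.97). Its log2 ratio of 1.02 became 0.72 with equal totals. Klf6, Klf3 and Klf4 had ratios of 0.813 (0.776 to 0.852), 0.744 (0.692 to 0.8) and 0.669 (0.57 to 0.786).

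Klf9 is also known to cycle with the day, and clock genes differed between the libraries. Of 15 clock genes that passed the filter, 1 was called higher and 2 lower. Nr1d1, a repressor of the clock, was 4.73-fold higher at P28 (4.12 to 5.46), from 4.68 to 22.2 RPKM. Per3 had 7.37 and 3.16 RPKM, a ratio of 0.429 (0.382 to 0.481). Per1, a clock gene that the receptor induces, had 4.18 and 6.34 RPKM (1.52, 1.33 to 1.73). The part of the hour of collection in any of these values, Klf9 included, was not tested.

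Glul was the most abundant of the 10 genes at P28 and the clearest of those that were higher. It encodes glutamine synthetase, which joins ammonia to glutamate, and lies on chromosome 1 from 153899944 to 153909723 (plus strand). Its level was 8.44 RPKM (7.64 to 9.28) at P7, from 417 reads, and 39.7 (38.3 to 41.3) at P28, from 2744 reads. This moved it from rank 1886 to rank 311 among the 24369 rows. The annotated gene Teddm2, on the other strand, overlaps exon sequence of Glul and had 0 and 0.0246 RPKM. The microRNA gene Mir8114, on the same strand, also overlaps and had 0 RPKM in both libraries. The log2 ratio of 2.11, the 14th highest of all genes that passed, was 1.73 with equal totals and 1.74 with a pseudocount of 5.

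None of the other genes of glutamine and glutamate handling was called. Of 15 genes, 14 passed the filter, and 10 of these had a log2 ratio below 0, with a median of -0.14. The glutamine transporter gene Slc1a5 had 17.7 and 11.3 RPKM, a ratio of 0.638 (0.578 to 0.704). Glud1, glutamate dehydrogenase, had 19.2 and 16.8 RPKM (0.872, 0.807 to 0.942), and Gfpt1, which uses glutamine for hexosamine synthesis, had 17.2 and 22.6 (1.31, 1.24 to 1.39).

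Mt1 and Mt2, neighbouring genes for small metal-binding proteins that respond both to glucocorticoids and to zinc, had levels that did not differ beyond counting error at P7 and did at P28. Mt2 (chromosome 8, 94172664 to 94173568, plus strand) had 19.3 RPKM (16.6 to 22.3) at P7 and 6 (4.77 to 7.44) at P28, from 189 and 82 reads. Mt1 (chromosome 8, 94179082 to 94180327, plus strand) had 19.1 RPKM (16.4 to 22) and 13.7 (11.8 to 15.9), from 182 and 183 reads. The 2 intervals of each gene did not overlap. The fold was 3.22 lower at P28 for Mt2, the 52nd lowest log2 ratio of all genes that passed, and 1.39 lower for Mt1 (1.12 to 1.71).

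The level of Mt1 was 0.988 times that of Mt2 at P7 (0.801 to 1.22) and 2.29 times at P28 (1.76 to 3.01). The change of that ratio was 2.32 (1.64 to 3.27), which is beyond counting error. It needs no scaling between libraries, since both genes share each library's depth. Reads of such paralogs can be shared or misplaced between them by the counting. An antisense gene, Gm45774, overlaps Mt2 in the annotation, and whether strand was used in counting is not stated.

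**Figure D2:**
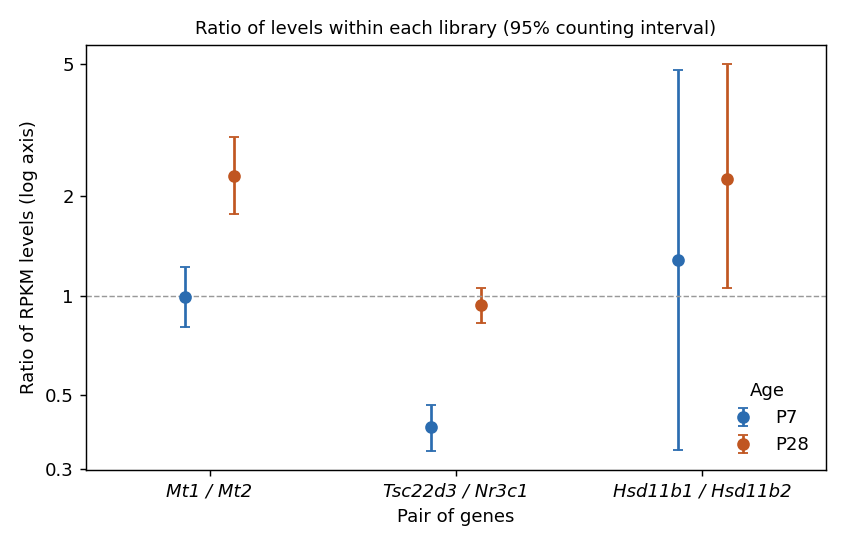
Ratio of the RPKM levels of 2 genes within 1 library (log axis), at P7 (blue) and P28 (orange), with the 95% counting interval as bars and a dashed line at equal levels. Mt1 over Mt2 goes from 0.988 to 2.29 and Tsc22d3 over Nr3c1 from 0.4 to 0.934, with bars that do not overlap, while the bars of Hsd11b1 over Hsd11b2 do.

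The promoter windows of Mt1 and Mt2 are shown because these neighbours differed at P28, and that of Glul because it was the most abundant of the genes that were higher. Capitals mark matches to the core of the metal response element, searched on both strands as TGCACNC or TGCGCNC. The match in Glul and the one nearest the start in Mt2 are on the opposite strand. No match overlapped another or a receptor half-site. Starts are those of RefSeq. They need not match the gene ends given above, and lie many kilobases inside the gene for Hsd11b1, Fkbp5 and the other Tsc22d3 windows. The core occurred in 21.4% of all windows, and a match describes letters, not a bound site. The counts hold for these 250-base windows only. Bases further upstream or past the start were not searched, so the counts do not rank Mt1 and Mt2 by metal response elements. Mt2 (chr8:94172368-94172617, plus strand) held 3 matches, beginning 223, 128 and 50 bases before the start, and 1.26% of all windows held 3 or more. Mt1 (chr8:94178839-94179088, plus strand) held 1, at 23 bases, and Glul (chr1:153899679-153899928, plus strand) 1, at 93 bases. The Hsd11b1 window also held 1, and the windows of Tsc22d3, Fkbp5 and Klf9 none.
Mt2: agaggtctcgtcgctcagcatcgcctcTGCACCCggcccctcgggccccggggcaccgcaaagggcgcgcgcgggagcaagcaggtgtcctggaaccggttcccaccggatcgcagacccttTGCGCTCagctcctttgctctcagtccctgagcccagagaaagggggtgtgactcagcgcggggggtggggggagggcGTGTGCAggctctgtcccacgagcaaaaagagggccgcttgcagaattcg
Mt1: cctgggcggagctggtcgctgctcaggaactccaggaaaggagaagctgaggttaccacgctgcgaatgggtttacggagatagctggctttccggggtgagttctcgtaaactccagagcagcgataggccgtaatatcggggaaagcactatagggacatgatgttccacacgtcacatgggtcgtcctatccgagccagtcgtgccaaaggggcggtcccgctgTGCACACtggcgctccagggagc
Glul: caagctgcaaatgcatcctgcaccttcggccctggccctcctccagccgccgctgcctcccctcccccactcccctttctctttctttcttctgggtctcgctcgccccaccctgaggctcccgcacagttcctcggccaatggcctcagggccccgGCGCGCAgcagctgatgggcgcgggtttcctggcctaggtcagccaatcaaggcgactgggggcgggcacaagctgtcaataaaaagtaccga

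No other gene of metal handling was called. Of 19 genes 15 passed the filter, with a median log2 ratio of 0.04 that turned to -0.28 with equal totals. Mtf1, the zinc-sensing factor that drives metallothionein genes, had 1.75 and 1.96 RPKM, and Slc30a1, a zinc exporter gene driven by the same factor, had 2.63 and 2.03. The log2 ratio of Mtf1 went from 0.11 to -0.14 with equal totals. The copper importer gene Slc31a1 (23.2 and 45.3 RPKM) and the copper pump gene Atp7b (3.98 and 8.36 RPKM) had plain ratios of 1.95 (1.84 to 2.07) and 2.1 (1.85 to 2.39). Hmox1, heme oxygenase, had 3.35 and 7.69 RPKM (2.29, 1.81 to 2.93), with a log2 ratio that rounds to 1.00 and lay under the threshold. The other metallothionein genes Mt3 and Mt4 had no read in either library, which allows up to 0.318 and 0.428 RPKM at P7.

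A further 26 genes that glucocorticoids induce in various tissues were listed beside the 10. Of these, 18 passed the filter, 2 were called higher, 1 lower, and 15 of the 18 had a log2 ratio above 0. With equal totals 1 was called higher (Zfp36), 2 lower (Cdkn1c and Anxa1), and 9 of the 18 were above 0. The median was 0.38, beside -0.08 for all genes, and 0.01 with equal totals, beside -0.36. Zfp36, which encodes a protein that destabilises inflammatory mRNAs, was higher at 43.5 and 122 RPKM (2.81, 2.68 to 2.94), and Klf15, described with its family, was the other. Errfi1, an inhibitor of the EGF receptor, came just short at 84.5 and 168 RPKM (1.99, 1.92 to 2.06). Cdkn1c, an imprinted cell cycle inhibitor gene, was the lower one, with 8.3 and 2.18 RPKM (0.262, 0.207 to 0.329), and Anxa1, annexin A1, had 43.3 and 24.3 RPKM (0.562, 0.513 to 0.616). Sgk1, the serum and glucocorticoid regulated kinase, had 3.37 and 1.58 RPKM. Dusp1, a MAP kinase phosphatase gene, had 66.2 and 72, and Ddit4, an inhibitor of mTOR signalling, 1.38 and 3.5.

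Inflammatory genes that the receptor represses were mostly under the filter. Of 16 genes 4 passed it and 0 were called. The 4 had a median log2 ratio of 0.52, or 0.23 with equal totals, and 3 of them had a ratio above 1. Il6 and Mmp9 had no read in either library. Icam1, an adhesion molecule, had 39.5 and 27.4 RPKM (0.694, 0.649 to 0.742), and Ptgs2, the inducible cyclooxygenase, had 2.99 and 5.59 (1.87, 1.6 to 2.2). The cytokine gene Csf2 had 2.09 and 3.86 RPKM (1.85, 1.26 to 2.76), and the chemokine gene Cxcl1 1.85 and 2.74 (1.48, 0.949 to 2.35).

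Of 16 lung genes known to respond to steroids around birth, all passed the filter, 1 was called higher and 1 lower. The higher one was the surfactant protein gene Sftpa1, whose log2 ratio of 1.23 became 0.84 with equal totals. The lower one was Scnn1g, a subunit of the epithelial sodium channel, with 30.8 and 12.5 RPKM (0.405, 0.373 to 0.439). The other subunits did not reach 2-fold, with 23.3 and 29.3 RPKM for Scnn1a and 6.38 and 4.9 for Scnn1b. The median of the list, 0.17, turned to -0.22 with equal totals.

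**Figure D3:**
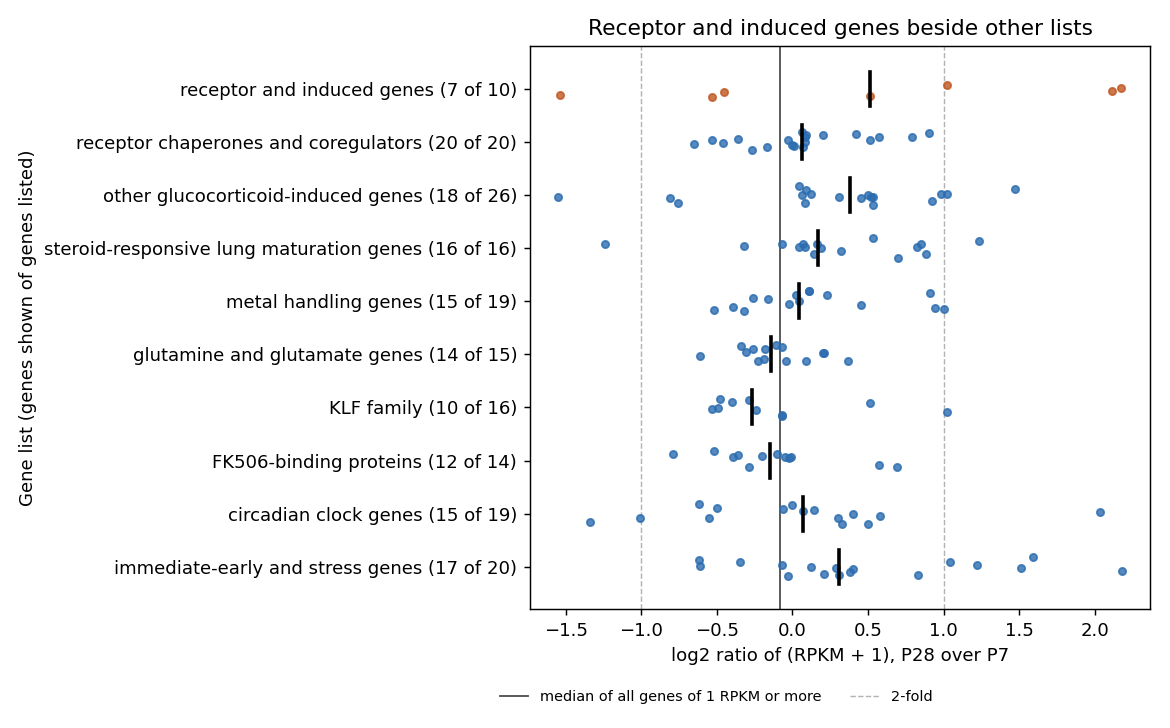
Each point is the log2 ratio of (RPKM + 1), P28 over P7, of 1 gene that passed the filter, by list, with a thick bar at the list's median, a solid line at the median of all genes (-0.08) and dashed lines at 2-fold. The receptor and induced genes (orange) reach from -1.54 to 2.17, while all 20 chaperone and coregulator genes and all 14 glutamine and glutamate genes lie between the dashed lines.

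Facts of the libraries that touch these genes are few. The reads behind the RPKM denominators, recovered from the values, numbered 17611797 at P7 and 24593112 at P28. Type 2 cell markers were abundant in both, with Sftpc at 13343 and 24085 RPKM, and all 10 of them passed the filter. Of the markers of other cells, 6 of 8 club and airway genes were called higher at P28, with summed levels of 7924 and 20203 RPKM. Endothelial markers (5 of 10 lower, sums of 45.1 and 17.2 RPKM), fibroblast markers (4 of 12 lower, 1 higher, 48 and 27.1) and type 1 cell markers (2 of 10 lower, 441 and 260) had lower sums at P28. Among those called lower, Emcn, Cldn5, Postn and Lox passed the filter through P7 alone, so they had to come out lower to some degree. With equal totals the genes called lower were 7 for endothelial, 5 for fibroblast and 7 for type 1 cell markers, and 5 club and airway genes were called higher. Of 12 leukocyte markers only 3 passed the filter and 0 were called, and Marco, C1qa, C1qb, Adgre1, Siglecf and Nkg7 had no read in either library. The part of cell composition in the values of the 10 genes was not tested. Xist had 52.7 RPKM at P7 and 0.245 at P28, and the Y-linked genes Ddx3y, Kdm5d and Uty had 0 at P7 and 4.01, 2.16 and 2.57 at P28, 4 genes chosen after their values were seen. Age and sex cannot be told apart here, also for the X-linked Tsc22d3.

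The direction of all 10 genes was the same under the 4 other scalings tried (a pseudocount cannot change it), while the sizes were not. For Hsd11b1, Hsd11b2 and Fkbp5, whose ratio intervals include 1 as deposited, that direction lies within counting error. The same holds for Tsc22d3 with equal totals, where the lower end of its ratio interval fell below 1. The log2 ratio of Glul ranged from 1.73 to 2.22, that of Mt2 from -1.87 to -1.14, and that of Nr3c1 from -0.87 to -0.37. Zbtb16 ranged from 0.87 with a pseudocount of 5 to 3.84 with one of 0.1, and Tsc22d3 from 0.18 with equal totals to 0.61. Hsd11b1, under the filter, ranged from 0.09 to 1.04.

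**Figure D4:**
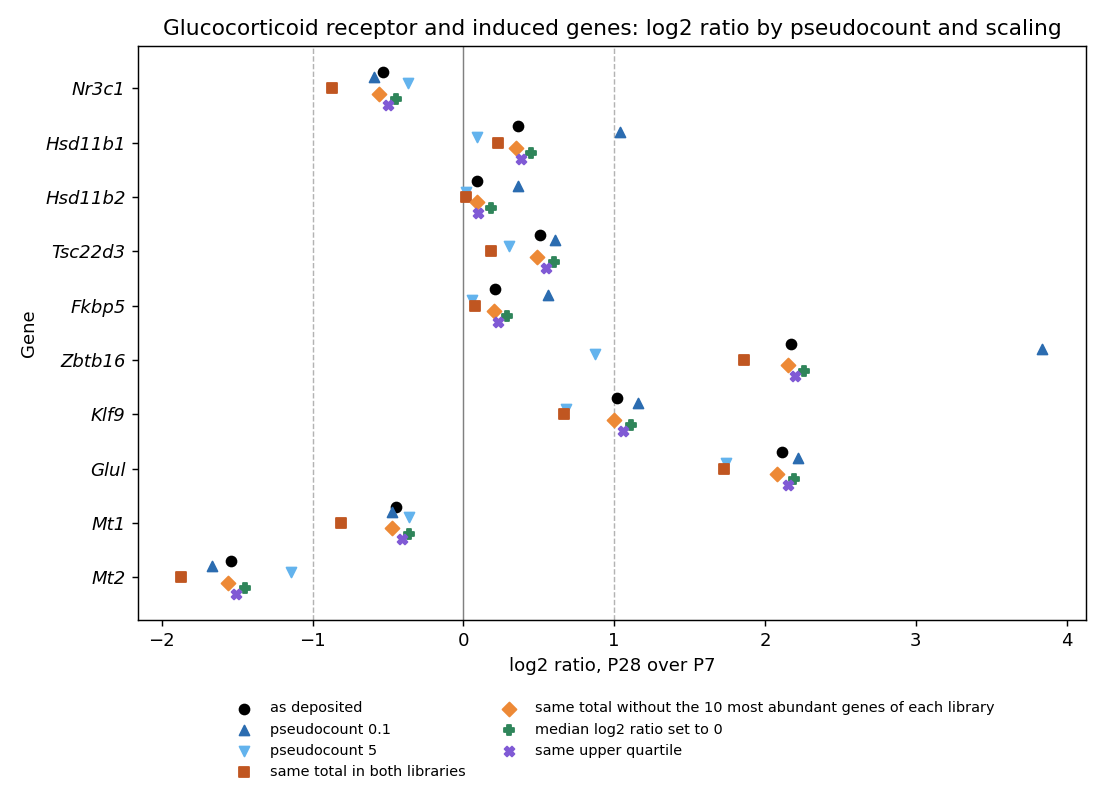
log2 ratio of each gene, P28 over P7, as deposited (black) and under 2 other pseudocounts and 4 other scalings, with dashed lines at 2-fold. Glul and Mt2 lie beyond 2-fold at all 7 symbols, Zbtb16 at all but a pseudocount of 5, and Klf9 at 4 of 7, while no gene has symbols on both sides of 0.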

How the data were processed

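Total RNA of sorted type II pneumocytes was made into Nextera XT libraries for paired Illumina sequencing, per the labels' protocols. TopHat, TopHat2 2.0.9 and GRCm38 (mm10) are named, without a role, per the submitters' processing notes. The authors deposited RPKM values, 1 column per library, per the file headers. The program behind them, the annotation and the filters are nowhere stated in the labels or header.

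Low values recovered the reads. The ratio between libraries was a ratio of whole numbers up to 40, within the rounding of 6 digits, for 81.9% of 3621 genes under 0.5 RPKM, once corrected for a depth ratio of 1.40. The denominators were those at which gene lengths came out whole (330 genes). A gene's reads were the whole pair whose length came nearest a RefSeq-linked GENCODE transcript. The procedure was tested on simulated data in which each gene had a single length. That test did not cover the choice among several transcript lengths. Intervals are exact Poisson for levels and exact (Clopper-Pearson) for ratios, and take the smallest step as 1 read. Without molecular identifiers, PCR copies may count as separate reads. Whether mates of a read pair were counted separately is not stated, and the intervals would be too narrow if they were. Intervals and floors (3 reads) cover counting error only.

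The log2 ratio of (RPKM + 1) understates low genes, and printed folds are plain ratios of RPKM. "Equal totals" means P28 multiplied by 0.760. Other pseudocounts, filters, scalings, a fold of 1.5 and other lengths were tried. The 10 genes and 22 other lists were chosen with earlier results of these data known. The rule for naming took from each list every called gene and, among genes reaching 5 RPKM, the 4 with the largest absolute log2 ratio, together with Nr3c2, Tsc22d1, Tsc22d4, Mtf1, Slc30a1 and H6pd. Markers of other cells are mostly given as counts. A few listed genes are counted but not reported here by name. Any other gene was named after its values were seen. Lists not described gave 0 of 8 ciliated genes called, 1 of 7 smooth muscle genes lower and 5 of 7 erythroid genes lower. These lower genes passed the filter through P7 alone, so they had to come out lower to some degree. The erythroid ones are globin genes, whose copies may share reads. Computations used Python 3.11.15, pandas 2.3.3 and scipy 1.17.1. Symbols were matched to GENCODE M21 (GRCm38) for positions.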

Additional observations from a re-analysis of the deposited data

How the results depend on the processing

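The calls of the 10 genes were 3 higher and 1 lower, and the 1 lower (Mt2) held under all alternatives. The 3 higher became 1 (Glul) with a pseudocount of 5, and 2 (without Klf9) with equal totals of either kind. With a filter of 5 RPKM they were 2, as Zbtb16 was no longer among the genes tested. Over all genes, 114 higher and 189 lower became 226 and 530 with a pseudocount of 0.1, 39 and 34 with one of 5, 73 and 93 with a filter of 5 RPKM, 62 and 388 with equal totals, and 434 and 720 at a fold of 1.5. With equal totals without the 10 most abundant genes of each library they were 105 and 198. P28 was multiplied by 0.980 there and by 0.760 with plain equal totals, and the 10 most abundant rows held 27.9% of the summed RPKM at P7 and 44% at P28. The other shifts follow from the scale, the threshold or the number of genes tested. Reads of 3 genes depended on the transcript length chosen. Zbtb16 had 10 and 284 in place of 20 and 568 (ratio interval 10.9 to 42.9), Fkbp5 12 and 27 in place of 24 and 54 (0.789 to 3.49), and Mt1 364 and 366 in place of 182 and 183 (0.621 to 0.835). Depth limits Hsd11b1, Hsd11b2 and Fkbp5, whose ratio intervals all include 1. No paired analysis was possible because each age has 1 library, and the shared number 1 in the labels leaves no second pair.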
